A study of Mus musculus with 12 samples.

Results

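The line of mouse erythroleukemia (MEL) cells that carries an excess of full-length LDB1 was compared with unmodified cells across all genes, to see where it went beyond the control level of expression and where it fell short of it. Libraries were taken by their labels: the 3 libraries of LDB1 knockdown cells with a full-length Ldb1 construct (FL) were set against the 3 of wild-type cells, labelled control, which makes 6 of the 12 libraries of the series. The other 6, used only to place the FL level of named genes, are 3 of knockdown cells with a construct labelled Ldb1 delta 4/5 (delta45) and 3 of knockdown cells with no construct (KD). FL cells thus carry both the knockdown and the construct, and control cells neither. All 4 groups are MEL cells that were induced, a treatment that drives this leukemic line toward red cell maturation in culture. The sources used here do not give the inducing agent, the promoter of the constructs, the knockdown method or whether each line is 1 clone.

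LDB1 is a nuclear adaptor protein that binds LIM-domain proteins and pairs with itself. In red cell precursors it sits on DNA in a complex with the transcription factors GATA1, TAL1 and a TAL1 partner such as TCF3, held together by LMO2. It is known for bringing the distant control region of the beta-globin genes close to their promoters.

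RNA was read as whole-number counts per gene. FL libraries held 9780096 to 19384213 reads in genes and control libraries 9168258 to 16685173. Levels are depth-scaled counts (CPM) after TMM scaling, and changes are log2 FL over control ± standard error from edgeR's quasi-likelihood fit of all 12 libraries. Calls were made over the 12837 genes tested, at an adjusted p (Benjamini-Hochberg) under 0.05. Pearson correlations of log2 CPM were 0.9888 to 0.994 between FL libraries, 0.9844 to 0.9905 between control libraries and 0.8734 to 0.8926 between an FL and a control library. The labels do not state separate cultures for a group's replicates. The tests therefore see the spread of these samples alone, and that spread may be technical. The share of tallied reads with several alignments was 42.26 to 47.12% in FL and 50.6 to 53.31% in control, and their part in the results below was not tested.

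The targeted gene matched the label in every FL library. Ldb1 (ENSMUSG00000025223) stood at 3696, 3410.5 and 3209.7 CPM in FL, against 743, 773 and 637 CPM in control. No FL library came near a control library, and the difference was 4.79-fold (log2 change 2.26 ± 0.16, edgeR adjusted p = 1.02e-07). The mean was 765 CPM in delta45 and 129.5 CPM in KD. Counts do not tell reads of the construct from those of the cells' own gene, so the excess is that of both together.

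Over the whole genome the line differed from control in most genes. Of the 12837 genes tested, 3611 were higher and 4005 lower in FL, so that 59.3% were called, 28.1% in the higher and 31.2% in the lower direction. These shares are the background for every count of list members below. The median change of all genes was -0.01 on the log2 scale. FL and control libraries did not overlap in 8957 of the tested genes (69.8%), called or not. Large changes were more often falls: 1216 genes were at least 2-fold higher and 2289 at least 2-fold lower, and at 8-fold the numbers were 115 and 529. With library totals in place of TMM scaling, the median of all genes was -0.23 and the split 2377 higher against 5100 lower. Between FL and the other lines, 58% of genes were called against KD and 52.8% against delta45, and those comparisons are used only for genes named here.

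**Figure D1:**
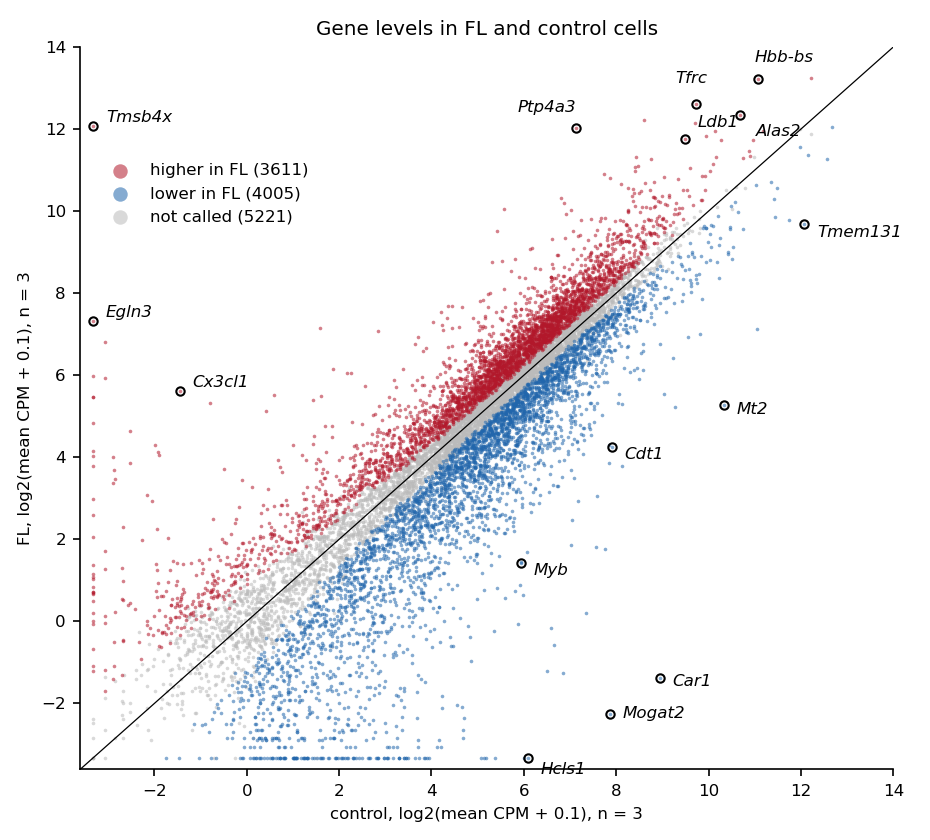
Mean level of each tested gene in FL (y axis) against control (x axis), both as log2 of mean CPM plus 0.1, with n = 3 libraries each. Colours give the call and the line marks equal levels. Genes called higher in FL number 3611 and lower 4005. Ringed genes are described in the text, and those on the left and lower edges had no reads in 1 group.

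The excess of Ldb1 came with higher mRNA of some partners and not of others. Of 16 tested genes of the LDB1 complex and its adaptors, 7 were higher and 3 lower in FL, with a median log2 change of 0.22. Ldb1 itself, which the construct carries, is among the 16 and among the 7. The shares were 43.75% and 18.75%, beside 28.1% and 31.2% of all genes. The count of lower genes was 1 without FL replicate 1, FL replicate 3 or control replicate 2. Tal1, the basic helix-loop-helix factor of the complex, was at 1787, 1845 and 1789.7 CPM in FL and at 499, 505 and 576 CPM in control, 3.43-fold higher (log2 change 1.78 ± 0.20, edgeR adjusted p = 5.61e-06). Its FL level was also above delta45 (755 CPM, adjusted p = 0.00011) and KD (1186 CPM, adjusted p = 0.015) in the same edgeR fit. Cbfa2t3, which encodes the corepressor ETO2, was 2.36-fold higher, Ssbp2, a single-stranded DNA-binding protein that protects LDB1 from breakdown, 1.78-fold, and Lmo2 1.56-fold. Rlim, a ubiquitin ligase that targets LDB1, was 1.89-fold higher. Gata1 had 872, 939 and 972 CPM in FL against 852, 868 and 763 CPM in control. Every FL library lay above every control library, but the change of 1.12-fold was not called (edgeR adjusted p = 0.35). Such a lack of overlap, in either direction, held for 69.8% of all tested genes. Lmo4, another LIM-only protein, was 1.89-fold lower.

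Adult globin genes went beyond control in FL. Of 7 tested globin genes 4 were higher and 1 lower. Hbb-bs, an adult beta-globin gene, was at 7169, 11231 and 10345 CPM in FL, against 2056, 2196 and 2239.6 CPM in control. FL replicate 1 was the lowest of the FL libraries and still above all control libraries, and the difference was 4.43-fold (log2 change 2.15 ± 0.36, edgeR adjusted p = 0.000189). Hbb-bt, the second adult beta-globin gene, was 3.52-fold higher (edgeR adjusted p = 1.32e-06), and Hba-a1, an adult alpha-globin gene, had 7655, 10686 and 10531 CPM in FL against 5005, 4667 and 4669 CPM in control, 2.01-fold higher (edgeR adjusted p = 0.00166). In both other lines the means were far lower, at 642 CPM in delta45 and 269 CPM in KD for Hbb-bs. Reads of near-identical globin copies can be dropped or given to the wrong copy, so values of single copies are uncertain. Because the cells were sampled in bulk, more cells making a transcript and more of it per cell cannot be told apart, here or below.

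The other globin genes had fewer counted reads. Hba-a2, the second alpha-globin copy, had 5.42, 7.91 and 7.003 CPM in FL against 7.72, 5.12 and 2.35 CPM in control, which overlapped and was not called (edgeR adjusted p = 0.345). Reads that align to both alpha-globin copies are not counted, so these values do not give the level or change of Hba-a2 itself. Hba-x, the embryonic zeta-globin gene, had 0.938, 0.814 and 0.765 CPM in FL against 2.79, 3.31 and 2.59 CPM in control, 3.44-fold lower at a level of few reads (edgeR adjusted p = 0.00189). Hbq1a, a theta-globin gene, had 2.50, 1.98 and 1.71 CPM in FL against 0.643, 1.103 and 0.705 CPM in control, 2.51-fold higher (edgeR adjusted p = 0.0193), a call lost without FL replicate 1, control replicate 1 or control replicate 3 (adjusted p = 0.0725, 0.0736 and 0.0652). The other theta-globin gene, Hbq1b, had means of 83.4 CPM in FL and 64.7 CPM in control and was not called (edgeR adjusted p = 0.223; 0.0126 with only the 6 FL and control libraries in the fit).

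The promoters of genes at the head of the red cell groups are shown to give the letters that red cell factors are known to bind. Each is 300 bases, 250 before and 50 after the start, from RefSeq on build GRCm38.p6, printed 5′ to 3′ along the gene. Capitals mark AGATAA or TGATAA (the GATA word), CCACACCC (the letters read by KLF1) and CCAAT, on either strand. Hbb-bs lies at chr7:103827879-103828178 on the minus strand, Hba-a1 at chr11:32283422-32283721 on the plus strand and Alas2 at chrX:150547167-150547466 on the plus strand.
Hbb-bs: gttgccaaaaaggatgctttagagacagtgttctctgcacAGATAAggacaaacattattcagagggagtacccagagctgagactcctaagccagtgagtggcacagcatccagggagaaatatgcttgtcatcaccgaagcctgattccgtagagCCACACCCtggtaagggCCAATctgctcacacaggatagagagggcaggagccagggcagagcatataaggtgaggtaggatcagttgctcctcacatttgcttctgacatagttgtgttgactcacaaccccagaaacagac
Hba-a1: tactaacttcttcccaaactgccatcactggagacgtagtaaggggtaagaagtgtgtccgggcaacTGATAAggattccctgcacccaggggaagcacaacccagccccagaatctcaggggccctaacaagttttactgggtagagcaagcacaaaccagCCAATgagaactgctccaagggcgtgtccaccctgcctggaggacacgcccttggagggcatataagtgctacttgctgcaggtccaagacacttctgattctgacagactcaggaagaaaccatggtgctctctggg
Alas2: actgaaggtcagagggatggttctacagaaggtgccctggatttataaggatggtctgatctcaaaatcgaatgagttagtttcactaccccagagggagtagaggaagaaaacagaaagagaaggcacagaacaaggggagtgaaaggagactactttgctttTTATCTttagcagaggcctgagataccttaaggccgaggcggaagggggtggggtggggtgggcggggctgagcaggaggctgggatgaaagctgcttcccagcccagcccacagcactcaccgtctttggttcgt
Hbb-bs held all 3 words, with the GATA word starting 210, CCACACCC 93 and CCAAT 76 bases before the start. In Alas2 the GATA word stood on the other strand, 86 bases before the start. A GATA word was found in 4 of 7 promoters of tested globin genes and in 6 of 17 of the membrane list. It was in 2 of 11 of heme synthesis, 3 of 16 of other red cell maturation and 3 of 20 of red cell transcription factors. Lists with more falls than rises held it as well, in 6 of 18 of leukocyte signalling and adhesion and 6 of 21 of interferon response. The share was 10.2% of the 9213 tested genes with a promoter in the table and 18.95% of all 27025 promoters. Among all genes called higher in FL the share was 9.07%, and among those called lower 11.4%. A match is a run of letters and not a measured binding site.

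Most genes of heme synthesis went beyond control. Of 13 tested genes, 8 were higher and 3 lower, with a median log2 change of 0.89. The count of lower genes was 1 without FL replicate 1, FL replicate 3, control replicate 2 or control replicate 3. Alas2, the red cell enzyme that starts the pathway, was at 4784, 5144 and 5570.0 CPM in FL, against 1513, 1639 and 1743 CPM in control, 3.17-fold higher (log2 change 1.66 ± 0.18, edgeR adjusted p = 4.74e-06). Alad, the next enzyme, was 3.40-fold higher (edgeR adjusted p = 3.12e-06). Fech, which inserts iron in the last step, was at 998, 1007 and 1019.9 CPM in FL and at 328, 361 and 416 CPM in control, 2.74-fold higher (edgeR adjusted p = 1.37e-07). Ppox, the enzyme before Fech, went the other way, with 175, 182 and 187 CPM in FL against 254, 261 and 228 CPM in control, 1.36-fold lower (edgeR adjusted p = 0.0055). Its FL level was nevertheless above delta45 (79.9 CPM) and KD (62.3 CPM) (edgeR adjusted p = 2.9e-06 and 4e-07). Hmox1, which breaks heme down, was 2.49-fold lower, with means of 43.3 CPM in FL and 108 CPM in control (edgeR adjusted p = 7.22e-06).

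Iron genes moved both ways. Of 22 tested genes of iron uptake and iron-sulfur clusters 10 were higher and 7 lower. The shares were 45.45% and 31.8%, beside 28.1% and 31.2% of all genes. Tfrc, the transferrin receptor that brings iron into the cell, was at 6802, 5921 and 6115 CPM in FL, against 633, 634 and 1282 CPM in control. Control replicate 3 stood above the other control libraries and still far below FL, and FL was 7.39-fold higher (log2 change 2.88 ± 0.25, edgeR adjusted p = 6.83e-07). Tfr2, a second transferrin receptor that also binds the erythropoietin receptor, fell short, at 17.9, 17.6 and 18.01 CPM in FL against 126, 131 and 116 CPM in control, 6.94-fold lower (edgeR adjusted p = 7.60e-10). Steap3, the reductase that frees transferrin iron in the endosome, was 3.23-fold lower (edgeR adjusted p = 1.83e-08), and lower than in delta45 (adjusted p = 1.9e-08) and KD (adjusted p = 3e-07) as well in the same edgeR fit.

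Membrane and skeleton genes rose in larger number than they fell. Of 25 tested genes of the red cell membrane and its skeleton, 13 were higher and 5 lower, with a median log2 change of 0.42, and 3 were lower without FL replicate 2 and 9 with only the 6 FL and control libraries in the fit or with library totals for scaling. Rhag, the Rh-associated glycoprotein, had 936, 842 and 882 CPM in FL against 253, 228 and 329 CPM in control, 3.28-fold higher (edgeR adjusted p = 1.98e-06). Epb42 (protein 4.2) was 3.13-fold and Add1 (alpha-adducin) 2.67-fold higher. Add2 (beta-adducin), the partner of Add1, had 102, 109 and 106 CPM in FL against 229, 243 and 214 CPM in control, 2.17-fold lower (edgeR adjusted p = 0.00203). Slc4a1, the band 3 anion exchanger, had 30.8, 30.0 and 30.7 CPM in FL against 43.3, 69.8 and 59.5 CPM in control. All FL libraries lay below all control libraries, without a call (edgeR adjusted p = 0.0753), and with only the 6 FL and control libraries in the fit the edgeR adjusted p was 0.000398. The groups did not overlap in 69.8% of all tested genes.

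Other genes of red cell maturation had the highest list median. Of 22 tested, 16 were higher and 2 lower, with a median log2 change of 1.17, and 1 was lower in each fit without an FL library or without control replicate 1 or 3. Car2, a carbonic anhydrase of mature red cells, was 3.46-fold higher at 1376, 1469 and 1539.8 CPM in FL, against 429, 416 and 424 CPM in control (log2 change 1.79 ± 0.09, edgeR adjusted p = 7.79e-09). Trim10, needed for terminal red cell differentiation, was 4.27-fold higher, Bcl2l1, which encodes the survival protein BCL-XL, 3.61-fold, Ube2o, a ubiquitin ligase that clears ribosomes from reticulocytes, 3.52-fold, Prdx2 2.73-fold and Bnip3l, a receptor for the removal of mitochondria, 2.56-fold.

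Car1, the other carbonic anhydrase of the list, had the deepest shortfall in the red cell lists. It had 0.208, 0.233 and 0.412 CPM in FL, against 515, 409 and 561 CPM in control, 1549-fold lower in FL (log2 change -10.60 ± 0.24, edgeR adjusted p = 2.68e-11). Its means of 21.3 CPM in delta45 and 2.72 CPM in KD lay between. The FL level was below both (edgeR adjusted p = 1.6e-09 and 4.1e-06). Car2 and Car1 thus moved in opposite directions in the same libraries.

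**Figure D2:**
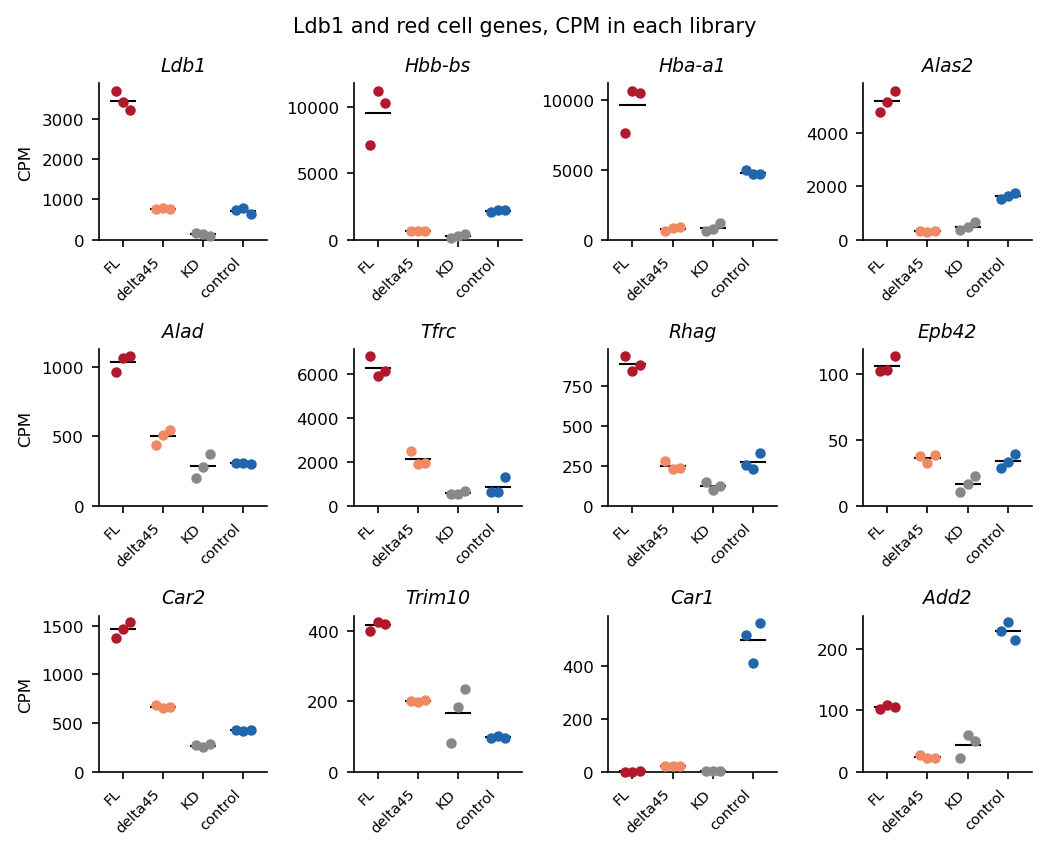
CPM in each library for Ldb1 and 11 red cell genes, with FL, delta45, KD and control from left to right. Points are libraries, bars are group means (n = 3), and each y axis starts at 0. All but Car1 (0.284 CPM) and Add2 (105 CPM) stand above control in FL.

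Transcription factors of the red cell line were called at about the shares of all genes. Of 23 tested, 7 were higher and 7 lower, 30.4% each way, beside 28.1% and 31.2% of all genes. Nfe2, an activator of globin genes, was 2.35-fold higher and Foxo3, an activator of red cell maturation genes, 2.16-fold. Klf1, the beta-globin activator, had 222, 283 and 266 CPM in FL against 199.6, 224 and 194 CPM in control, which overlapped and was not called (edgeR adjusted p = 0.262; 0.029 with only the 6 FL and control libraries in the fit). Gfi1b, a repressor needed for red cell and platelet lines, was 2.44-fold lower, with 104, 111 and 116 CPM in FL against 265, 276 and 265 CPM in control (edgeR adjusted p = 2.5e-05). Epor, the erythropoietin receptor, was 2.06-fold higher (edgeR adjusted p = 0.00294).

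Genes of earlier blood cells moved both ways. Of 10 tested stem and progenitor genes 4 were higher and 2 lower, beside 28.1% and 31.2% of all genes. Myb, which keeps precursors dividing, had 2.71, 3.02 and 2.06 CPM in FL, against 56.9, 58.8 and 67.6 CPM in control, 24.1-fold lower in FL (log2 change -4.59 ± 0.37, edgeR adjusted p = 3.74e-07). Its mean was 93.7 CPM in delta45 and 66.4 CPM in KD, and FL was below each (edgeR adjusted p = 1.1e-07 and 3.8e-07). Spi1, the factor PU.1 whose locus carries the virus insertion in many MEL lines, was 4.23-fold lower at 13.2 CPM in FL and 55.8 CPM in control. Gata2, the early GATA factor, had 57.6, 62.3 and 56.3 CPM in FL against 12.9, 13.6 and 12.1 CPM in control, 4.57-fold higher (edgeR adjusted p = 2.92e-08). Its level in KD was 58.7 CPM, with no call against FL (edgeR adjusted p = 0.99). Meis1, a stem cell and megakaryocyte homeobox gene, was 4.13-fold higher at 85.7 CPM in FL and 20.7 CPM in control.

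Platelet-line genes moved both ways by large amounts. Of 12 tested megakaryocyte markers, 7 were higher and 3 lower. Itga2b, the platelet integrin alpha-IIb, had 2080.2, 2199.8 and 2127 CPM in FL against 774, 829.5 and 720.0 CPM in control, 2.76-fold higher (edgeR adjusted p = 7.11e-08). Pf4, the platelet chemokine, was 7.57-fold higher at 546 CPM in FL and 72.2 CPM in control, and Gp1ba, a von Willebrand factor receptor subunit, 10.1-fold higher. Tubb1, the beta-tubulin of platelets, had 0.208, 0.233 and 0.118 CPM in FL against 9.86, 8.53 and 9.34 CPM in control, 50.9-fold lower (edgeR adjusted p = 2.2e-07). The summed level of the 17 markers was 2947 to 3038 CPM in FL and 915 to 1009.6 CPM in control, with Selp and Clec1b at 0 reads in both groups.

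Markers of other blood and stromal cells were scarce in both groups, with lower sums in FL. Of the tested myeloid markers 2 were higher and 4 lower of 7, of the mast and basophil markers 5 lower of 5, of the lymphoid 2 lower of 3, and of the stromal and endothelial 1 lower of 3 (2 without FL replicate 1, with library totals, with only the 6 FL and control libraries or with the replicate block). Scarce members were tested only where some group held enough reads to pass the filter, so these counts cannot show a shift of a whole list. Gzmb, for example, had 0 reads over FL, 8 over control and 68 over KD. The 18 myeloid markers summed to 12.8 to 15.1 CPM in FL and 68.9 to 86.7 CPM in control, with 8 members at 0 reads in FL and 5 in control, S100a8, S100a9, Itgam and Csf2ra in both. Most of the control sum was Prtn3 (proteinase 3), with 6.04, 7.56 and 6.77 CPM in FL against 71.3, 60.5 and 55.01 CPM in control. The 10 mast and basophil markers summed to 1.98 to 2.67 CPM in FL and 10.9 to 13.2 CPM in control, with Ms4a2, Mcpt8, Tpsb2 and Prss34 at 0 reads in both. The 15 lymphoid markers summed to 6.25 to 9.71 CPM in FL and 25.4 to 26.6 CPM in control, and Pax5, Cd3e and Cd8a were among those with no reads in either. The 13 stromal and endothelial markers summed to 24.7 to 31.9 CPM in FL and 39.0 to 44.6 CPM in control, and Cdh5, Col1a2 and Fn1 were among those at 0 in both. The part of other cells in these differences was not tested.

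Leukocyte signalling and adhesion genes fell in greater number. Of 24 tested, 16 were lower and 6 higher in FL, with a median log2 change of -1.26. Itgal, the integrin alpha-L chain, had 1.04, 0.930 and 0.412 CPM in FL against 97.1, 94.5 and 95.03 CPM in control, 129.6-fold lower (edgeR adjusted p = 1.08e-09). Itgal was as low in the other lines, at means of 0.898 CPM in delta45 and 0.708 CPM in KD, with no call against FL (edgeR adjusted p = 0.62 and 0.96). Selplg, the P-selectin ligand, was 23.5-fold lower, and FL was also below delta45 and KD (edgeR adjusted p = 3.3e-07 and 2.8e-09). Plek (pleckstrin), a substrate of protein kinase C known from platelets, went beyond control, with 4886, 4251 and 4499 CPM in FL against 751, 719 and 1031 CPM in control, 5.45-fold higher (edgeR adjusted p = 8.94e-08). It was also above delta45 and KD, by 3.40 on the log2 scale each (edgeR adjusted p = 7e-09 and 1.2e-08). Among cytokine receptor and JAK-STAT genes 11 of 19 were higher and 4 lower. Pim1, a kinase gene induced by STAT5, had 1045, 1046 and 1039.7 CPM in FL against 132, 145 and 110.4 CPM in control, 8.09-fold higher (edgeR adjusted p = 1.13e-09), and the feedback inhibitors Cish and Socs3 were 3.73-fold and 3.51-fold higher.

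Cell division genes fell short of control nearly as a block. All 22 tested mitosis genes were lower, with changes from -2.96 to -1.58 on the log2 scale and a median of -2.47. Of 27 tested DNA replication genes 26 were lower and 1 higher, with a median of -1.55. Cdt1, which licenses replication origins, had 16.1, 19.4 and 21.4 CPM in FL against 262, 246 and 208 CPM in control, 12.5-fold lower in FL (log2 change -3.65 ± 0.14, edgeR adjusted p = 7.60e-10). Plk1, a mitotic kinase, had 15.8, 18.9 and 20.4 CPM in FL against 153, 146 and 133 CPM in control, 7.79-fold lower (edgeR adjusted p = 1.08e-09). Ccna2 (cyclin A) was 7.11-fold, Lig1 (DNA ligase 1) 5.43-fold and Ccnb2 (cyclin B2) 4.35-fold lower.

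FL was also below the other lines. Cdt1 averaged 148 CPM in delta45 and had 96.8, 107 and 96.5 CPM in KD, and FL was lower than each (edgeR adjusted p = 3e-09 and 2.2e-08). Plk1 averaged 90.2 CPM in delta45 and 65.9 CPM in KD, again above FL (edgeR adjusted p = 7e-09 and 6.8e-08). Among genes of cell cycle entry and arrest 12 of 21 were lower and 6 higher, with Ccne1 (cyclin E1) 6.28-fold and the E2F repressor E2f8 5.76-fold lower. Cdkn1c, the cyclin-dependent kinase inhibitor p57, was itself 7.17-fold lower at 2.13 CPM in FL and 15.3 CPM in control. Myb and Mxd3, a MYC-network gene known from dividing cells and 11.1-fold lower, moved the same way as the division lists.

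Promoters of 1 mitosis and 1 replication gene are shown because the lists share letters that cell cycle factors are known to read. Capitals mark CCAAT in both, TTTGAA (the cell cycle homology element) in Ccnb2, and TTTCCCGC, TTTCGCGC, TTTGCCGC or TTTGGCGC (E2F words) in Mcm3, on either strand. Ccnb2 lies at chr9:70421505-70421804 and Mcm3 at chr1:20820263-20820562, both on the minus strand of GRCm38.p6.
Ccnb2: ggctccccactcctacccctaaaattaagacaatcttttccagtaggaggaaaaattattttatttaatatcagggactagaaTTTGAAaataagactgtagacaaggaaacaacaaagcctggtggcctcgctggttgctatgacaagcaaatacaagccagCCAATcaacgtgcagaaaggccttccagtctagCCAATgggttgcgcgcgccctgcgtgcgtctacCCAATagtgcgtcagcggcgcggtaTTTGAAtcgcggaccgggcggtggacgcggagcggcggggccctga
Mcm3: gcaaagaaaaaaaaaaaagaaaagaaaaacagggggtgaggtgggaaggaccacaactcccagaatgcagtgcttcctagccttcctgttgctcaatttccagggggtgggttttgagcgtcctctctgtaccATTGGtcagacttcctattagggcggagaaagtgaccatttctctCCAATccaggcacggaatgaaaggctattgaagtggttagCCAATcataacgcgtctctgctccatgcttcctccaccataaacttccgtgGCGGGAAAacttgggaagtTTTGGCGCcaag
Ccnb2 held 3 CCAAT words, at 87, 54 and 21 bases before the start, and TTTGAA both 167 bases before the start and from base 5 after it. TTTGAA was in 12 of 18 promoters of tested mitosis genes, against 11.5% of all tested genes and 18.11% of all promoters in the table. CCAAT was in 14 of those 18, against 39.2% of tested genes and 37.92% of all promoters. An E2F word was in 8 of 22 replication promoters, against 4.30% of tested genes and 2.32% of all promoters. Mcm3 itself, a subunit of the replicative helicase, was 3.30-fold lower, with 57.6, 55.1 and 57.2 CPM in FL against 205, 193 and 163 CPM in control (edgeR adjusted p = 2.73e-08).

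Interferon response genes were low in FL. Of 29 tested, 16 were lower and 0 higher, with a median log2 change of -2.12. Irf7, the factor that amplifies interferon production, had 36.1, 36.9 and 38.1 CPM in FL against 554, 686 and 618 CPM in control, 16.7-fold lower in FL (log2 change -4.06 ± 0.93, edgeR adjusted p = 0.00217). Oas2, a sensor of double-stranded RNA, was 20.5-fold lower (edgeR adjusted p = 0.000473), and Bst2 (tetherin) 11.7-fold lower (edgeR adjusted p = 0.00051). FL and control libraries were tight, while KD libraries were spread widely, with Irf7 at 41.6, 1457 and 3406 CPM. In delta45 Irf7 averaged 23.9 CPM, with no call against FL (edgeR adjusted p = 0.56). Without the KD and delta45 libraries 24 of the genes were called lower, and with FL replicate 3 left out 9 were. Among class I presentation genes 5 of 14 (35.7%, beside 31.2% of all genes) were lower and 0 higher (2 higher with only the 6 FL and control libraries), and 2 or 3 lower without FL replicate 1, FL replicate 3, control replicate 1 or control replicate 2. B2m, the light chain of class I molecules, had 281, 292 and 334 CPM in FL against 798, 738 and 827 CPM in control, 2.60-fold lower (edgeR adjusted p = 0.0109).

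The Bst2 promoter, at chr8:71537423-71537722 on the minus strand of GRCm38.p6, carries GAAA, any 2 letters and GAAA again (a core of the interferon-stimulated response element), shown in capitals and searched on both strands.
Bst2: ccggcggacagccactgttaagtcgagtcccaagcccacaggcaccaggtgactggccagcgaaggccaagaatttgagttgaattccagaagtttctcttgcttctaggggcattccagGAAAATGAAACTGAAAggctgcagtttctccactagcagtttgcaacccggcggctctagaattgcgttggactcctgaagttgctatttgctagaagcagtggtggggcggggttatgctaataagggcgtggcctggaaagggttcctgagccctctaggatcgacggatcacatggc
Its 2 matches start 130 and 124 bases before the gene's start and overlap. This motif was in 11 of 21 promoters of tested interferon genes, against 2.996% of tested genes and 3.49% of all promoters.

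**Figure D3:**
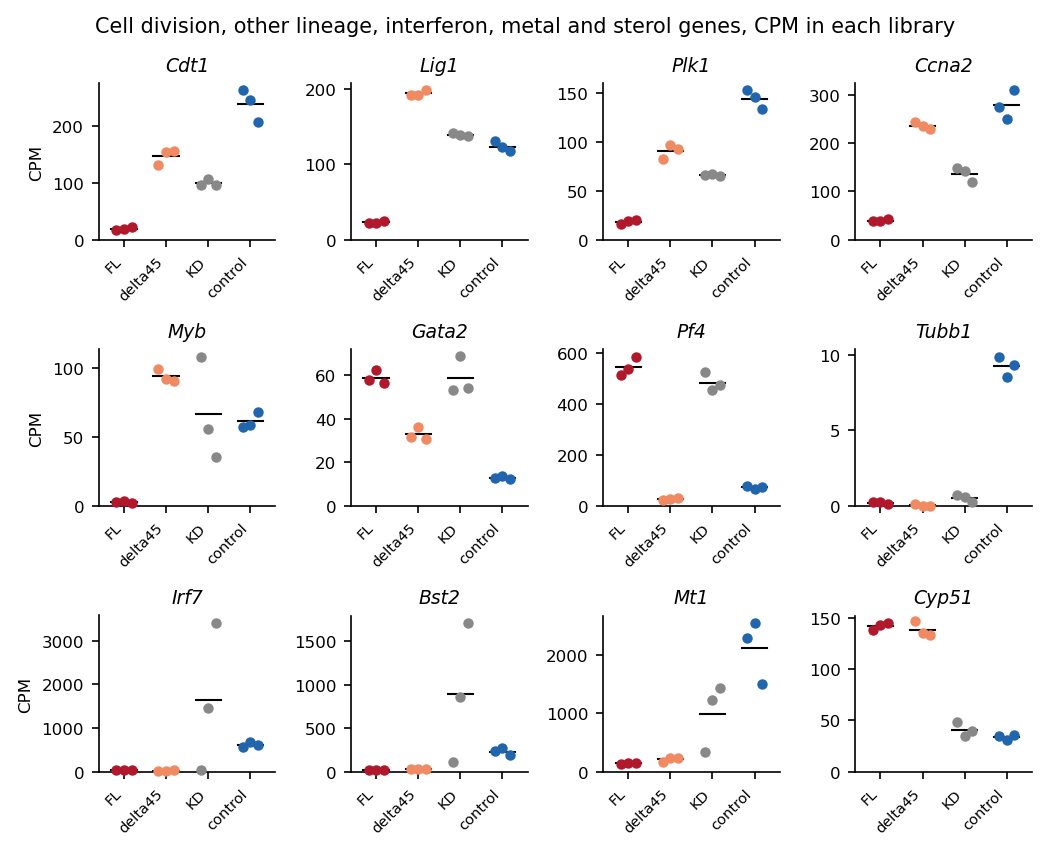
CPM in each library for genes of cell division (Cdt1, Lig1, Plk1, Ccna2), earlier and platelet lines (Myb, Gata2, Pf4, Tubb1), interferon (Irf7, Bst2), metal binding (Mt1) and sterol synthesis (Cyp51), with FL, delta45, KD and control from left to right. Points are libraries, bars are group means (n = 3), and each y axis starts at 0. Cdt1 stands at 18.97 CPM in FL and 238 CPM in control, and the KD libraries are spread widely for Irf7 and Bst2.

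Amino acid and protein folding genes fell short of control in several branches. Of 21 tested genes of ATF4 and amino acid stress 15 were lower and 3 higher, with a median log2 change of -1.03. Phgdh, which starts serine synthesis, had 3.44, 5.35 and 5.30 CPM in FL against 39.5, 41.1 and 22.4 CPM in control, 7.22-fold lower (edgeR adjusted p = 5.71e-07), and Pycr1, of proline synthesis, was 13.0-fold lower. Eif2ak1, the heme-regulated kinase of red cells, was higher, with 512, 488 and 499.5 CPM in FL against 165, 168 and 184 CPM in control, 2.90-fold (edgeR adjusted p = 1.51e-07). Chaperones of the endoplasmic reticulum were lower in 10 of 20 and higher in 1, with Calr (calreticulin) 1.87-fold lower. Heat shock proteins outside the endoplasmic reticulum moved both ways: 7 of 14 tested were higher and 3 lower, with Hspa8 4.89-fold and Hsp90aa1 3.21-fold higher, while Hspa9, the mitochondrial form, was 2.92-fold lower.

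Metallothioneins, which bind zinc and copper, were among the largest losses in CPM. Mt1 had 122, 151 and 148 CPM in FL against 2282, 2549 and 1493 CPM in control, 15.0-fold lower in FL (log2 change -3.91 ± 0.43, edgeR adjusted p = 6.3e-06). Mt2 was 33.7-fold lower at 38.5 CPM in FL and 1296 CPM in control. KD libraries were spread widely, with 326, 1219 and 1426 CPM of Mt1, and the delta45 mean was 211 CPM.

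Most ribosomal protein genes were lower. Ribosomal protein genes, a list taken after their values had been seen, were lower in 58 of 81 and higher in 2, with a median log2 change of -0.93. Their summed level was 11636 to 15538 CPM in FL and 25764 to 32453 CPM in control. The other lines were below control as well, at 10354 to 11140 CPM in delta45 and 14095 to 19997 CPM in KD. Eef2, the translocation factor of translation, had 4076, 4328 and 4385 CPM in FL against 7118, 6779 and 5815 CPM in control, 1.54-fold lower (edgeR adjusted p = 0.000222). Many ribosomal protein genes have processed copies elsewhere in the genome and reads of such copies align to several places. The share of those reads also differed between the groups, as given above, and its part was not tested. Among genes of ribosome assembly 10 of 29 were higher and 9 lower. These shares of 34.5% and 31.0% were near the 28.1% and 31.2% of all genes. With library totals for scaling 5 were higher and 15 lower.

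Sterol and fatty acid synthesis went beyond control. Of 25 tested genes 20 were higher and 1 lower, with a median log2 change of 0.76. Cyp51, an enzyme of the late sterol pathway, had 138, 143 and 145 CPM in FL against 35.1, 30.7 and 35.8 CPM in control, 4.19-fold higher (log2 change 2.07 ± 0.12, edgeR adjusted p = 2.73e-08). Mvd, an enzyme of the mevalonate route, was 3.80-fold and Fasn (fatty acid synthase) 3.29-fold higher. In delta45 Cyp51 averaged 138 CPM, with no call against FL (edgeR adjusted p = 0.82), and FL was above KD (40.9 CPM, adjusted p = 1.2e-07) in the same edgeR fit.

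Genes of p53 and cell death went beyond control as well. Of 21 tested 12 were higher and 1 lower. Bcl2l11, the death-promoting protein BIM, had 520.5, 425 and 419.5 CPM in FL against 57.9, 53.8 and 55.5 CPM in control, 8.17-fold higher (edgeR adjusted p = 1.39e-09), and Trp53 was 3.06-fold higher. The opposing survival gene Bcl2l1 was also higher, as given with the red cell genes. Proteasome genes were higher in 16 of 33 and lower in 0, with a median log2 change of 0.31, and with library totals for scaling 10 were higher and 1 lower.

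**Figure D4:**
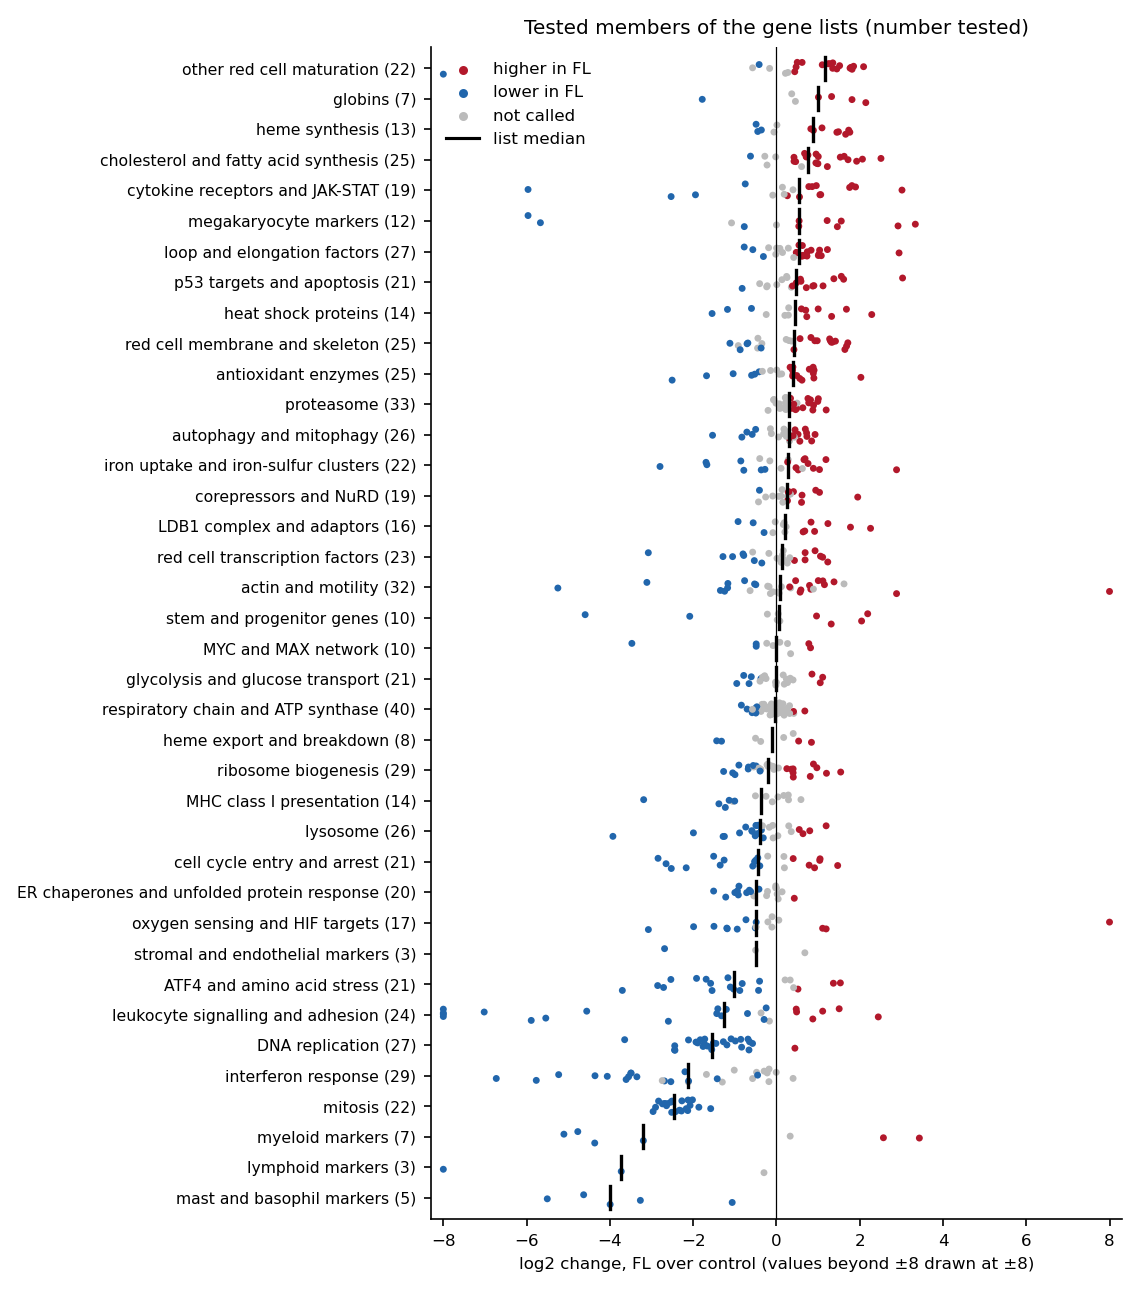
Log2 change of FL over control for each tested member of the 38 gene lists, ordered by list median, with the number tested in brackets. Red points are called higher, blue lower and grey not called, and black bars are list medians. Other red cell maturation has the highest median (1.17), and mitosis lies wholly below 0.

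Single genes outside these lists changed further. The largest rises among genes with reads in both groups included Cx3cl1, a chemokine of 172-fold higher mRNA, and Lax1, a membrane adaptor of lymphocyte signalling, 83.2-fold higher. At high level, Ptp4a3, a phosphatase linked to cell motility, had 3784, 4405 and 4259 CPM in FL against 137, 143 and 139 CPM in control, 29.7-fold higher (edgeR adjusted p = 8.8e-08). Tuba4a, an alpha-tubulin, was 12.4-fold higher, and Cited2, a coactivator-binding protein that restrains HIF1, 22.2-fold higher, with 930.0, 1161 and 1077 CPM in FL against 36.5, 49.0 and 56.7 CPM in control (edgeR adjusted p = 2.31e-09). FL was above delta45 and KD for Ptp4a3, Tuba4a and Cited2, with the highest edgeR adjusted p of these 6 tests at 3.2e-06.

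Among falls, Plekhs1 had 0.312, 0.465 and 0.177 CPM in FL against 118, 110.2 and 117 CPM in control, 389-fold lower (edgeR adjusted p = 3.89e-10). Mogat2, an acyltransferase of fat synthesis, had 4 reads over FL and 8226 over control, with 0.208, 0 and 0.118 CPM in FL against 244, 252 and 202 CPM in control. Tns1 (tensin 1), which links integrins to actin, was 153-fold lower. At high level, Tmem131, an endoplasmic reticulum protein of collagen secretion, had 923, 795 and 744 CPM in FL against 4221, 4038 and 4660.3 CPM in control, 5.25-fold lower (edgeR adjusted p = 7.6e-09). Cers2, a ceramide synthase, was 3.89-fold and Mknk2, a kinase of the translation factor eIF4E, 2.46-fold lower.

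A smaller set was close to absent from 1 of the groups. With 3 or fewer reads over the control libraries and a mean of 5 CPM or more in FL there were 19 genes, 11 of them with 0 control reads. Tmsb4x, which encodes the actin-binding thymosin beta-4, had 4056, 4263 and 4556 CPM in FL and 0 reads in every control library. Against 3 reads over the control libraries, it was at least 52635-fold higher, and it averaged 181 CPM in delta45 and 538 CPM in KD. Egln3, an oxygen sensor that marks HIF for breakdown, was at least 1926-fold higher from 5600 reads over FL and 0 over control. Of the 19 genes 16 were at 5 CPM or more in both delta45 and KD.

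The reverse set was larger. With 3 or fewer reads over FL and 5 CPM or more in control there were 60 genes, 36 of them with 0 FL reads. Hcls1, a cortactin-like actin regulator of blood cells, had 0 reads over FL and 2456 over control, at least 793-fold lower. Syk, a kinase of immune receptors, was at least 401-fold lower and Cd48, a surface protein of blood cells, at least 425-fold lower. Hcls1 and Syk also had 0 reads over delta45 and over KD. Of the 60 genes 30 had 3 or fewer reads over delta45 and over KD alike, while 4 reached 5 CPM in KD and 0 in delta45. Bounds cover counting error only.

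The shares of called genes varied between chromosomes, which was not tested. Of the tested genes 12279 could be placed on chromosomes 1 to 19 and X by RefSeq gene order. Chromosome 12 had 42.3% of its 416 tested genes higher and 25.2% lower, and chromosomes 15 and 16 followed with 38.6% and 38.1% higher. On chromosome 7, 16.3% of 945 genes were higher and 40.6% lower, and on chromosome 6, 19.2% and 41.6%. Median log2 changes ran from -0.27 on chromosome 6 to 0.28 on chromosome 12, above 0 on 9 chromosomes and below it on 11. Against the other lines the chromosomes ranked differently: chromosome 12 had a median of -0.18 against KD and 0.29 against delta45, and chromosome 19 of -0.41 against KD and 0.51 against delta45, beside -0.12 against control.

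**Figure D5:**
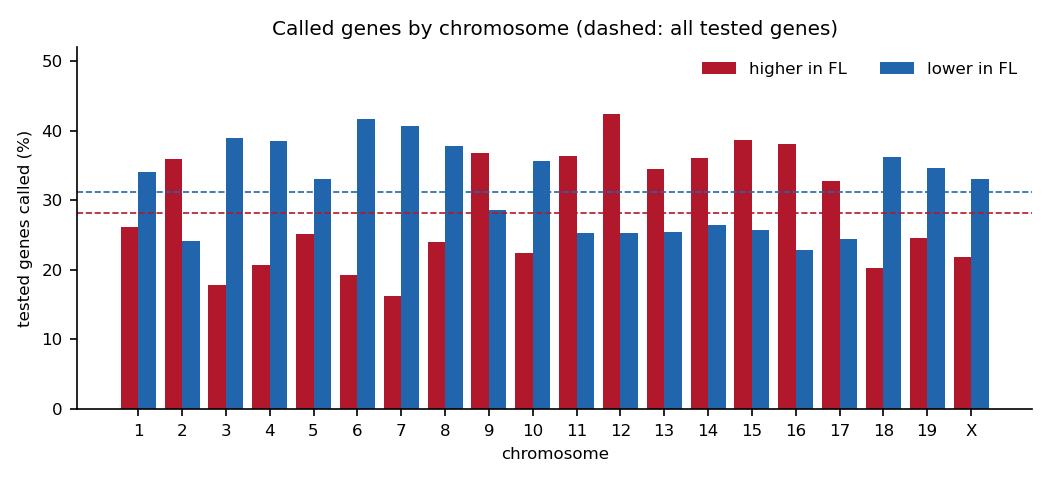
Share of tested genes on each chromosome called higher (red) and lower (blue) in FL against control, in percent. Dashed lines give the shares over all tested genes, 28.1% higher and 31.2% lower. Chromosome 12 has the highest share of rises (42.3%) and chromosome 6 the highest share of falls (41.6%).

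Neighbouring genes also changed in runs. Called 1 way without a break, 57 runs of 6 or more tested genes were found. The longest was 17 genes lower on chromosome 8, from Def8 to Gnpat, with a median log2 change of -1.05. On chromosome 5 a run of 8 lower genes from Rasal1 to Oas1a held 6 Oas genes, 3 of them on the interferon list, with a median of -2.95. Oas genes have similar sequences, so their single values are uncertain. A run of 9 lower genes on chromosome 6, from Impdh1 to Irf5, had a median of -2.05. Rises formed runs of up to 8 genes, such as Ddx20 to Wdr77 on chromosome 3 with a median of 1.18. No test of run length was made.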

How the data were processed

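RNA of 12 libraries was read with a TruSeq V2 kit that keeps no strand. The deposited files hold whole-number counts of reads per gene, made by the authors with cutadapt 1.1, TopHat 1.4.1 and HTSeq 0.5.3p9 on build mm9, per the submitters' processing notes, which also name DESeq 1.10.1. Reads that align to several places are not counted, so genes with near-identical copies are uncertain. Library sizes and tests exclude the 5 non-gene totals of each file. Identifiers were named from RefSeq tables of build GRCm38.p6 (32919 of 37991 matched), which also gave gene order and promoters, 1 per gene.

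Computed here: edgeR 4.0.16 in R 4.3.3, with filterByExpr, TMM scaling and quasi-likelihood tests of 4 group means over all 12 libraries, Benjamini-Hochberg adjusted over 12837 genes. Standard errors are the log2 change divided by the root of F. Libraries in genes held 8783970 to 20464959 reads. An exact test of 3 against 3 libraries cannot go below p = 0.1, so calls rest on the spread shared over all genes. On simulated data for the FL comparison, 50 of 12429 genes were changed at each fold, evenly up and down, and libraries were drawn independently. There, 28% of 1.5-fold, 84% of 2-fold and 100% of 4-fold and 8-fold changes were recovered, with 3 false calls. In the data 59.3% of genes were called, large falls outnumbered large rises and replicates may be technical. The simulated rates therefore do not give the error rate of the calls made here. Genes with 3 or fewer reads over a group were set against a floor of 3 reads over that group, which covers counting error only.

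The comparison, 38 gene lists (825 entries, 820 matched) and the rule for named genes were chosen with earlier results of these data known. The rule takes up to 5 genes a list by adjusted p (all genes of the main red cell and LDB1 lists, with red cell markers), 12 by fold and 10 by CPM each way, and 8 near-absent genes each way. Ribosomal proteins were added after their values were seen. Members named only as being at 0 reads and the ends of gene runs fall outside the rule, and some genes the rule takes are not reported here. Alternatives were RLE scaling, library totals, 2 other filters, only the 6 FL and control libraries, DESeq2 1.42.0, library sizes without globins, a replicate block, a 1.5-fold threshold and leaving out each library. Same-numbered FL and control libraries did not deviate together, with correlations of -0.12, 0.13 and -0.03. A promoter match was sought on both strands, and figures were drawn with matplotlib 3.10.9.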

Additional observations from a re-analysis of the deposited data

Results flagged for a closer look

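Reads outside the gene counts were looked at as well. Reads aligned outside annotated genes made up a mean of 4.003% of tallied reads in FL libraries (3.502 to 4.962%), against 3.08% in control libraries (2.999 to 3.19%), which marks them because every FL library lies above every control library. Ambiguous reads, which overlap more than 1 gene, made up a mean of 1.533% in FL (1.499 to 1.553%) and 1.358% in control (1.33 to 1.386%), marked for the same reason. In the other lines, reads outside genes made up 5.483 to 6.133% in delta45 and 2.117 to 3.079% in KD. The part of these reads in the gene results was not tested.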

How the results depend on the processing

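Of the 102 genes named with values, 98 kept their side of the threshold under every alternative but the 1.5-fold test. That test was run on counts of genes and list members only. No gene called in the main or the alternative fit reversed its direction, and the direction of genes called in neither was not compared. Of the rest of the 102, Hbq1a lost its call without single libraries. Hbq1b, Klf1 and Slc4a1 gained one where only the 6 FL and control libraries were fitted, as given beside them. Slc4a1 was also called with library totals and with no filter on low counts. The count of higher genes was 2377 with library totals in place of TMM scaling, and the lower count 5100. Testing for a change above 1.5-fold left 1432 higher and 2403 lower genes, by that test's construction. Leaving out 1 library gave 3080 to 3881 higher and 3607 to 3724 lower genes, and a log2 change of Ldb1 of 2.21 to 2.32. With a replicate block there were 3713 higher and 4106 lower genes. The block changed no call of a named gene, but 2 corepressor genes were lower, as with DESeq2 and with only the 6 libraries, and the numbers do not pair the samples (correlations in the processing section). DESeq2 called 3640 higher and 4117 lower genes. With library totals 3 sterol genes were lower and 0 replication or endoplasmic reticulum chaperone genes higher, 6 autophagy and 7 antioxidant genes were higher, and 5 corepressor genes were higher and 3 lower. Respiratory chain genes were then higher in 1 and lower in 17, heme export genes higher in 1 and lower in 4, and 8 glycolysis and 5 MYC network genes were lower. With only the 6 libraries 5 amino acid stress and 6 glycolysis genes were higher, 4 heme export genes were lower, and respiratory chain genes were higher in 5 and lower in 10. The causes were not tested. Depth limits genes of a few reads, such as Car1 (11 reads over FL) and Tubb1 (6).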

Other observations

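Of 27 tested factors of loops and elongation 16 were higher and 3 lower in FL. Hexim1, which holds the elongation kinase P-TEFb inactive, had 498, 587 and 539.8 CPM in FL against 70.1, 72.2 and 68.6 CPM in control, 7.70-fold higher (edgeR adjusted p = 7.36e-09). Of 19 tested corepressor and NuRD genes 9 were higher and 1 lower. All counts here stand beside 28.1% higher and 31.2% lower of all genes. Autophagy genes were higher in 11 and lower in 5 of 26 (42.3% and 19.2%). Antioxidant enzymes were higher in 14 and lower in 6 of 25 (56% and 24%), and lysosome genes higher in 4 and lower in 15 of 26 (15.4% and 57.7%). Glycolysis genes were higher in 3 and lower in 5 of 21 (14.3% and 23.8%), and genes of oxygen sensing higher in 3 and lower in 9 of 17 (17.65% and 52.9%). Respiratory chain genes were higher in 2 and lower in 6 of 40, with a median log2 change of -0.04. MYC network genes were higher in 2 and lower in 3 of 10 (20% and 30%), and heme export and breakdown genes higher in 2 and lower in 2 of 8 (25% each way). Both lists were thus near the shares of all genes.

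Of 32 tested genes of actin and motility 37.5% were higher and 28.1% lower, beside 28.1% and 31.2% of all genes. Actb, a gene often used to normalise expression, had 2904, 2276 and 2436 CPM in FL against 309, 352 and 369 CPM in control, 7.39-fold higher (edgeR adjusted p = 5.77e-09). Its mean was 1662 CPM in delta45 and 1717 CPM in KD, so that control was the lowest of the 4 groups.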
